A study of Rattus norvegicus with 2 samples.

Results

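The high-affinity IgE receptor of mast cells and basophils is built from the products of 3 genes, Fcer1a, Ms4a2 and Fcer1g, and their transcripts were followed in RBL-2H3 cells with and without IgE. The members were taken by gene symbol from the authors' table of all genes, where each of the 3 stood once among 14913 distinct names. RBL-2H3 is a rat basophilic leukemia line, labelled WT in both groups. One library came from cells with no treatment and the other from cells incubated with IgE, both made from poly(A)-selected RNA. The labels give no IgE dose, no duration and no word on whether an antigen was added. With 1 library per condition, the differences below have no replicate check, and a change in the cells cannot be told apart from a difference between single cultures or preparations. In bulk RNA, fewer cells that carry a transcript and less of it per cell cannot be told apart either.

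Fcer1a encodes the alpha chain, whose extracellular immunoglobulin domains hold the Fc part of IgE. Ms4a2 encodes the beta chain, a membrane-spanning protein that amplifies the signal and that rodent cells need to bring the receptor to the surface. Fcer1g encodes the gamma chain, which forms a disulfide-linked pair, carries the activation motif that recruits the kinase Syk, and also serves other Fc receptors. Binding of IgE is known to stabilise the receptor protein on the surface of mast cells and basophils, a step that transcript counts do not measure.

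All 3 subunit transcripts were higher in the IgE library, by 26.3% for Fcer1a, 16.4% for Fcer1g and 9.75% for Ms4a2, and none came near a 2-fold difference. Of the 12102 genes with at least 20 reads over both libraries, 51.1% were higher with IgE by any amount. A difference of 2-fold or more was seen in 2.63% of them, upward in 1.33% and downward in 1.3%. The 3 subunits, all over that minimum, had a median log2 fold of 0.22, against 0.01 for all 12102 genes (0.005 before rounding). Log2 folds are IgE over untreated, so that positive means higher with IgE. The subunits together took 0.183% of the untreated reads (38302 of 20917968, exact Clopper-Pearson 95% interval 0.181% to 0.185%) and 0.209% of the IgE reads (54839 of 26268330, 0.207% to 0.211%). These and all later intervals cover counting error only.

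The alpha chain differed most. Fcer1a had 11225 reads without IgE and 17691 with it. In CPM (read counts divided by TMM-adjusted library size), these were 534.9 (95% Poisson interval 525.1 to 544.9) and 675.6 (665.7 to 685.7). The 2 intervals lay well apart. The log2 fold was 0.34 (exact counting interval 0.30 to 0.37).

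Ms4a2, the beta chain, had 26281 and 35992 reads. Its level was 1252 CPM (1237 to 1268) without and 1375 CPM (1360 to 1389) with IgE, so the intervals again did not overlap, although the difference was the smallest of the subunits. The log2 fold was 0.13 (0.11 to 0.16).

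Fcer1g, the gamma chain, had 796 and 1156 reads, which makes its values the least precise. They corresponded to 37.9 CPM (35.3 to 40.7) and 44.1 CPM (41.6 to 46.8), and these intervals were separated by a narrow gap. The log2 fold was 0.22 (0.09 to 0.35). Transcript lengths were not used here, so the levels of the subunits are not ranked against each other.

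**Figure D1:**
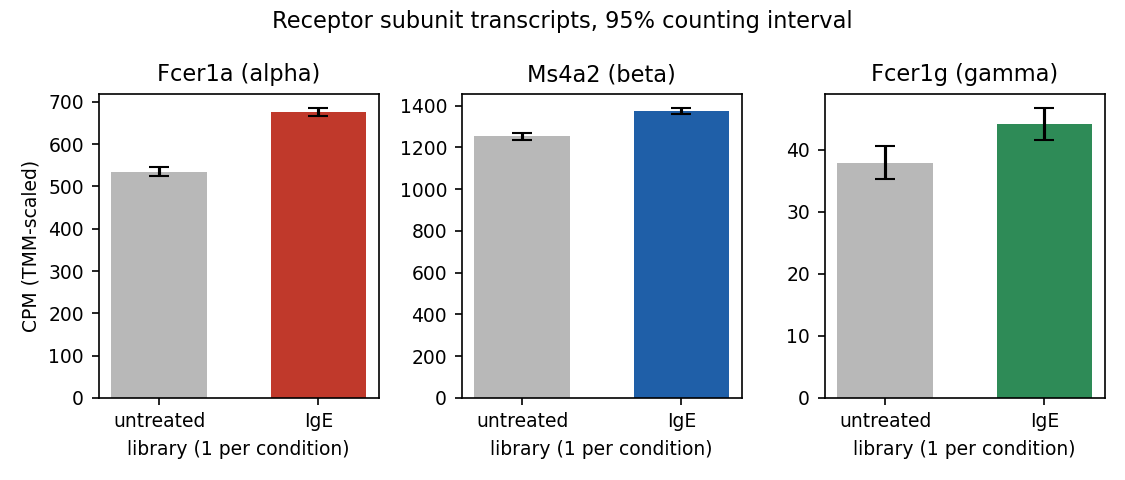
Level of each receptor subunit transcript in CPM (TMM-scaled) in the untreated library (grey) and the IgE library (coloured), 1 library per condition, each panel with its own axis from 0. Error bars are 95% Poisson intervals of the read count and do not overlap within any subunit; Fcer1a goes from 534.9 to 675.6 CPM, Ms4a2 from 1252 to 1375 and Fcer1g from 37.9 to 44.1.

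The subunits were then compared with each other. A ratio of reads between 2 subunits needs no scaling between libraries, and transcript length cancels when the ratio is compared across libraries. The Fcer1a to Ms4a2 read ratio was 0.427 without and 0.491 with IgE, a log2 change of 0.20 (exact conditional counting interval 0.16 to 0.24). Relative to the beta chain, the alpha chain was therefore higher in the IgE library by more than counting error. The Fcer1a to Fcer1g ratio went from 14.1 to 15.3, a log2 change of 0.12 (-0.02 to 0.25). The Fcer1g to Ms4a2 ratio went from 0.0303 to 0.0321, a log2 change of 0.08 (-0.05 to 0.22). Both intervals with the gamma chain include 0, so a difference of Fcer1g from either partner was not detectable at its depth.

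The size of the 3 folds depended on what the libraries were scaled to. With TMM, library totals, DESeq2 size factors or upper quartile scaling, Fcer1a lay between 0.33 and 0.34, Ms4a2 between 0.12 and 0.13 and Fcer1g between 0.21 and 0.22 on the log2 scale. Scaled on 10 housekeeping genes, they were 0.21, 0.01 (0.008 before rounding) and 0.09, because the median of all genes then shifted by -0.125. Ms4a2 was level between the libraries relative to the housekeeping genes, whose median log2 fold was 0.13 under TMM scaling. The order of the subunits and the ratios between them are the same under any scaling.

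**Figure D2:**
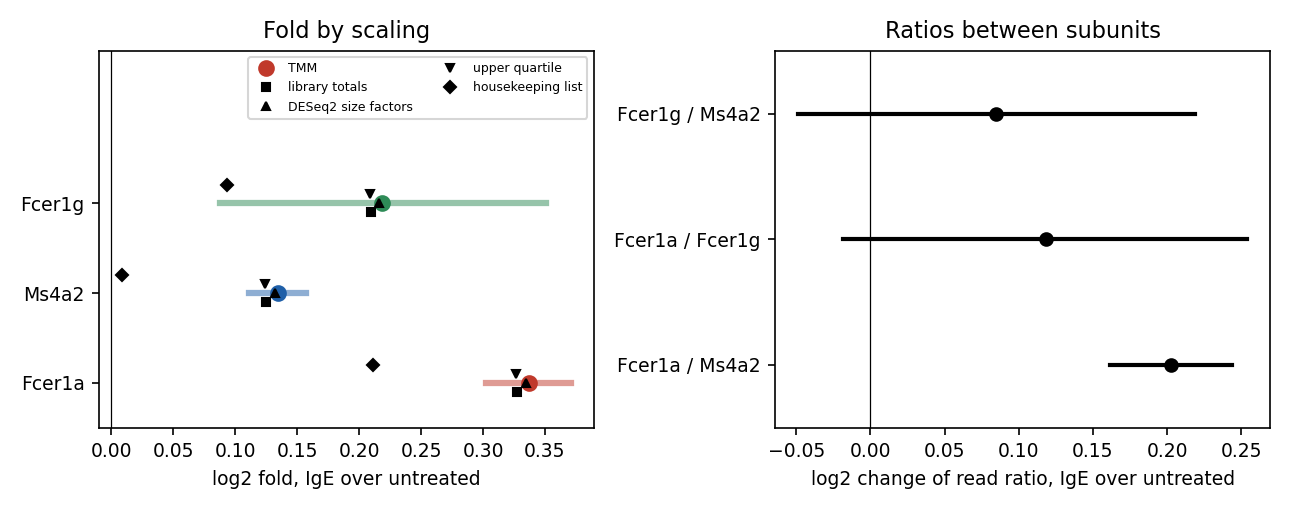
Left, log2 fold (IgE over untreated) of each subunit, with the TMM value as a coloured dot, its 95% counting interval as a bar, and black symbols for the other scalings; the housekeeping scaling puts Ms4a2 at 0.01 and Fcer1a at 0.21. Right, log2 change of the read ratio between subunits with 95% counting intervals; only the Fcer1a to Ms4a2 interval (0.16 to 0.24) lies wholly above 0.

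To place the folds among genes measured with like precision, each subunit was set beside the genes whose mean CPM lay within 2-fold of its own. For Fcer1a these were 550 genes, with a log2 fold SD of 0.14 and a central 95% range of -0.21 to 0.32, and Fcer1a at 0.34 lay just above that range. Of the 550, 13 (2.36%) had a fold at or above that of Fcer1a, and within 4-fold of its mean CPM the share was 1.38% of 1595 genes. Ms4a2 lay inside the range of its 159 genes (-0.20 to 0.22), of which 31 (19.5%) were at or above it. Fcer1g lay inside the range of its 3912 genes (-0.29 to 0.36), of which 397 (10.1%) were at or above it. The folds of Ms4a2 and Fcer1g were thus within the ordinary spread of such genes between these 2 libraries. Their counting intervals exclude 0 under TMM scaling. The housekeeping scaling shifts the folds by about -0.125, and the intervals with them. That is further than their lower ends (0.11 and 0.09) lie above 0, and less than their upper ends. Both intervals then include 0.

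Of the 13 genes at or above Fcer1a, 9 encode cytosolic ribosomal proteins, which made up 44 of the 550 genes of like level. The other 4, named after their values were seen, were Rgs1, a regulator of G protein signalling (6748 and 11447 reads, log2 0.44), Zc3h10 (7040 and 11903 reads, 0.44), the actin-binding thymosin Tmsb4x (11497 and 18658 reads, 0.38) and Ppial4d (11306 and 17819 reads, 0.34), named like a cyclophilin. Ribosomal protein transcripts were higher with IgE throughout, with 67 of 68 above 0 and a median log2 fold of 0.29. The 13 protein-coding transcripts of the mitochondrial genome were all above 0, with a median of 0.16. These medians lie in the same range as the receptor folds, and their part in the receptor values was not tested. Without ribosomal and mitochondrial genome genes, a comparison added after seeing the data, 0.791% of 506 genes were at or above Fcer1a and 11.6% of 138 at or above Ms4a2.

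**Figure D3:**
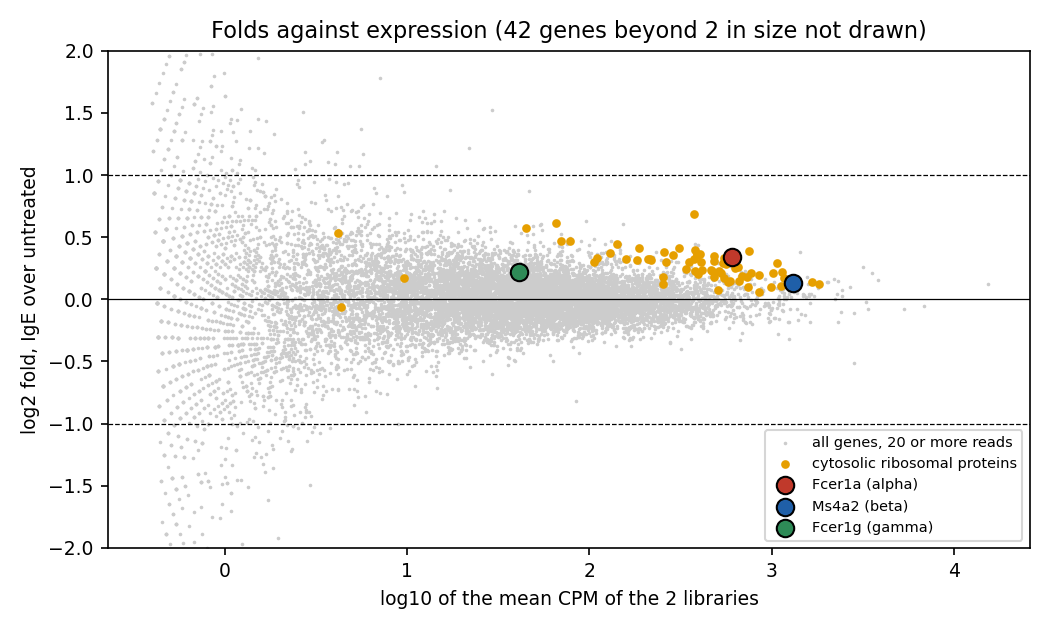
Log2 fold (IgE over untreated) against the log10 of the mean CPM for the genes with 20 or more reads (grey), cytosolic ribosomal protein genes (orange) and the receptor subunits (large dots); dashed lines mark 2-fold, and 42 genes beyond 2 in size are not drawn. Fcer1a sits at the upper edge of the cloud among ribosomal protein genes, while Ms4a2 and Fcer1g sit inside it.

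The authors' deposited table gave the same directions and no call. It lists log2 fold changes of 0.33 for Fcer1a, 0.13 for Ms4a2 and 0.21 for Fcer1g, with unadjusted p-values of 0.110, 0.541 and 0.331. The adjusted p is 1 for each in the authors' deposited table, and 0 of the 3 are among the 451 names of their selected list. These p-values were recomputed to within 3.47e-08 by edgeR's exact test with the dispersion fixed at 0.01, a coefficient of variation of 0.1 between replicates, so they rest on that assumed value and not on replicates.

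By nearness in fold alone, among genes with at least 0.5 times the subunit's reads, the genes most like Fcer1a over these 2 libraries were Ppial4d (0.34) and the ribosomal protein genes Rps24 (0.33) and Rpl23a (0.35), out of 585 candidates. Those most like Ms4a2 were Ptbp3, Hnrnpa2b1 and Hsp90aa1 (0.14 each, of 164), and those most like Fcer1g were Kdelr2, Lsm11 and Tp53inp1 (0.22 each, of 6720). With only 2 libraries such nearness is a description of size, and many genes share it.

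A start-site sequence in the RefSeq table (GRCr8) was matched for 1 of the 3 subunits, Fcer1a. Its promoter is shown because the alpha chain had the largest fold and because this promoter is known, as background, to be driven in mast cells by GATA family factors together with the ETS family factors Spi1 and Elf1. The 250 bases before the start lie at chr13:88224680-88224929 on the minus strand and are printed 5′ to 3′, with matches to the core letters GATA on either strand in capitals.
Fcer1a: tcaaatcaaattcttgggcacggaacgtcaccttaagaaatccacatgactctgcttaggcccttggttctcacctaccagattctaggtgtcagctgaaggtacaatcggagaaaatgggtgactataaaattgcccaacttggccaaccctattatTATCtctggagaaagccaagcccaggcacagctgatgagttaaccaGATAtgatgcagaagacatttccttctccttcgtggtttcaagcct
The GATA letters occurred 2 times, at -46 to -43 on the sense strand and at -92 to -89 on the opposite strand, counted from the start. At least 1 match stood in 55.9% of the 33469 promoter windows of this length, and 2 or more in 25.7%. The ETS core GGAA, searched on both strands, also occurred 2 times, at -229 to -226 and, on the opposite strand, at -27 to -24, and 93.2% of windows hold it. The E-box letters CANNTG occurred 3 times (in 65.5% of windows at least once), TATAA 1 time (24.0%) and CCAAT 0 times (34.0%). No 2 of these matches overlapped. These are letter matches, not binding sites.

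Transcripts of the factors known at the subunit promoters lay around 0, with a median log2 fold of -0.01. Of 18 measured, 8 were above 0 and 10 below, against 51.1% of all genes above 0, and 0 were 2-fold apart, against 2.63% of all genes, so both counts are near the background. At or above the fold of Ms4a2, the lowest of the subunits, were 0 of 18, against 25.8% of all genes. That share was not matched to the level of these factors. Gata2 was at a log2 fold of -0.11 (interval -0.12 to -0.09, from 52028 and 60311 reads) and Gata1 at 0.10 (0.02 to 0.19, from 2020 and 2704). Spi1 (0.03) and Elf1 (-0.01) had intervals that include 0. The highest was Nfyc, a subunit of the CCAAT-binding factor, at 0.13 (0.02 to 0.24), nearly the value of Ms4a2. Of 3923 genes of like level, Nfyc itself counted, 18.5% were at or above its fold. The lowest were Nfatc2 (-0.18) and Zfpm1, which encodes the GATA cofactor FOG, with 735 and 605 reads (-0.60, -0.76 to -0.44). Of 3718 genes of like level, Zfpm1 itself counted, 0.05% were at or below its fold.

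Transcripts of the molecules that carry the receptor's signal lay mostly a little below 0. Of 24 measured proximal partners, 0 were 2-fold apart (2.63% of all genes were) and 18 were below 0. Counting upward folds only, 0 were at or above any of the 3 subunits. Of all 12102 genes, 25.8% were at or above Ms4a2, a share not matched to the level of these partners. Downward, some partners were further from 0 than Ms4a2 and Fcer1g, such as Plcg2 at -0.26. The list median was -0.05. Syk, the kinase that docks on the gamma chain, stood at -0.01 (-0.12 to 0.09) and Lyn, the kinase bound to the beta chain, at -0.04 (-0.10 to 0.03). The highest were the phospholipase Plcg1 (0.10) and the adaptor Lat2 (0.09, 0.03 to 0.15). Plcg1 had only 186 and 248 reads, and its interval (-0.18 to 0.38) includes 0. The lowest were Plcg2 (-0.26) and the adaptor Pag1 (-0.24), and Lcp2, the adaptor with the most reads, was at -0.01.

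Genes that remove the receptor from the surface were spread around 0. Of 18 measured genes of ubiquitination and endocytosis, 8 were above 0 and 10 below, with a median of -0.02. At or above the fold of Ms4a2 were 4 of them, a share near the 25.8% of all genes, at or above Fcer1g 1 (16.2% of all genes) and at or above Fcer1a 0 (9.38%). The ubiquitin ligase genes Cbl (-0.03, -0.12 to 0.06) and Cblb (-0.06, -0.26 to 0.15) had intervals that include 0. The highest were Rabgef1 (0.25) and Rab5a (0.21), both of early endosomes, the lowest the dynamin Dnm2 (-0.18) and Hgs (-0.17), which sorts ubiquitinated receptors, and the clathrin heavy chain Cltc was at 0.02.

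Genes for folding and export in the endoplasmic reticulum, where the alpha chain is glycosylated and assembled, were mostly above 0 (16 of 18, median 0.07, against 51.1% of all genes above 0). At or above the fold of Ms4a2 were 4 of the 18, a share near the 25.8% of all genes. The highest were the translocon subunits Sec61g (0.43) and Sec61b (0.25). The chaperones Canx and Calr were at 0.04, and Uggt1 (-0.01) and Ganab (-0.06) were lowest.

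**Figure D4:**
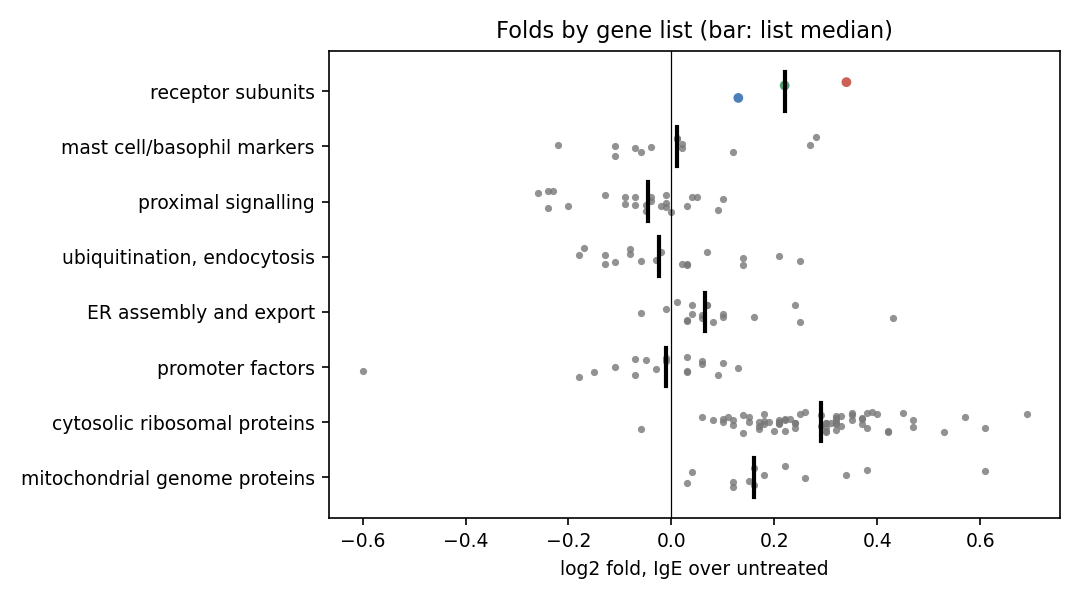
Log2 fold (IgE over untreated) of each measured gene, 1 dot per gene, for the receptor subunits (Ms4a2 blue at 0.13, Fcer1g green at 0.22, Fcer1a red at 0.34) and for lists of related genes, with a black bar at each list's median. The proximal signalling genes lie to the left of the subunits, while ribosomal protein genes (median 0.29) span the same range as the subunits and beyond.

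Relatives of the subunits gave mixed values. Of 16 other Fc receptor genes listed, 4 passed the minimum of reads, 2 above and 2 below 0. Fcrla, an Fc receptor-like gene, was higher by about as much as Fcer1a (1451 and 2316 reads, log2 0.36, 0.26 to 0.45). Fcgr2a, a low-affinity IgG receptor, was lower (554 and 475 reads, -0.54, -0.72 to -0.36). Of 3339 genes of like level, Fcgr2a itself counted, 0.21% were at or below its fold. Fcgr2b, the inhibitory IgG receptor that restrains IgE signalling, was at -0.07 (1697 and 2017 reads, -0.16 to 0.02). Fcgr genes have near-identical copies, so their counts are uncertain. Fcer2, the low-affinity IgE receptor, had 3 and 6 reads, Fcrlb 0 and 9, and Fcgrt 0 in both libraries, where a count of 0 allows up to 3 reads.

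Among IgE-binding proteins outside the receptor, the galectin Lgals3 was at 0.03 (4671 and 5946 reads) and Lgals1, which was listed with it, at 0.38 (2260 and 3668). The gamma chain has homologues and partners as well. The zeta chain gene Cd247 had 78 and 133 reads (0.45, 0.04 to 0.87) and the adaptor Hcst 98 and 149 (0.28, -0.09 to 0.67). Of the gamma chain's other partners, 2 of 19 passed the minimum, Csf2rb (-0.12) and Il3ra (0.02), subunits of an interleukin receptor with which the gamma chain associates in basophils. Of the beta chain's MS4A family, Ms4a6a had 414 and 591 reads (0.19, 0.01 to 0.38) and Ms4a6bl 42 and 54 (0.04, -0.57 to 0.66). Ms4a3, a family member outside the list that was picked with its values known, had 23 and 39 reads (0.44).

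The label of the cells was checked against marker lists, which also bears on the gamma chain, since macrophages, neutrophils, platelets and natural killer cells express it too. Of 20 listed mast cell and basophil markers, 13 were found by name. The proteases Mcpt2, Mcpt8, Tpsab1 and Tpsb2 were among those not found, so the check is partial. All 13 passed the minimum, with a summed level of 7998 CPM without and 8008 with IgE and a median log2 fold of 0.01. Kit (-0.04), Il1rl1 (0.01) and Hdc (0.01) were level within 0.05. Cma1 (0.28) and Cpa3 (0.27, 0.23 to 0.30) were highest. Cma1 had only 125 and 189 reads, and its interval (-0.06 to 0.61) includes 0. Mcpt1 (-0.22) and Gata2 (-0.11) were lowest. The fold of Fcer1a was reached by 0 of 13, a count near the background of 9.38% of all genes. The summed level of macrophage markers (5 of 14 in the table) was 71.9 and 60.9 CPM, most of it Itgam, while Csf1r had 46 and 37 reads and Msr1 26 and 7. Neutrophil markers (2 of 12) summed to 1.24 and 1.49 CPM, all of it Ngp, with Camp at 0 reads. Lymphocyte and natural killer cell markers (5 of 14) summed to 114 and 123 CPM, most of it Nkg7, with Klrk1 at 14 and 11 reads. Platelet and erythroid markers (5 of 10) summed to 166 and 210 CPM, most of it Pf4 (2677 and 4401 reads, log2 0.40), while Itga2b had 160 reads in each library, Alas2 7 and 13 and Gp9 1 and 0. Fibroblast and epithelial markers (4 of 13) summed to 3355 and 3119 CPM, most of it Vim (-0.11), with Col3a1 at -0.15 and Thy1 at 0.03. The part of other cell types in the receptor values was not tested.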

How the data were processed

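The authors deposited raw read counts per gene name for 1 untreated and 1 IgE library of RBL-2H3 cells, together with their own log2 fold changes and, unadjusted and adjusted, their p-values, per the file headers. HISAT2 2.1.0, fastp 0.23.0, the build rn6 and DESeq2 1.18.1 are listed, without roles, per the submitters' processing notes. The counter, its strand setting and its handling of shared reads are not stated there. Of 16990 rows, 2077 were identical repeats and were dropped. Totals were 20917968 (untreated) and 26268330 (IgE) reads. CPM and log2 folds were computed with edgeR 4.0.16 (R 4.3.3), TMM scaling and a prior of 0.5 counts, and counts of genes cover those with at least 20 reads in total. Intervals are exact (scipy 1.17.1) at 95%. With 1 library per group no test was made. The fold calculation was tested on simulated data.

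The members and lists were chosen with earlier results of these data known. Named are the subunits, the highest and lowest gene of each list (2 each above 10 measured), the one with most reads, and the 3 nearest in fold to each subunit. Other names were chosen after their values were seen, as were the lists of ribosomal and mitochondrial genome genes. A few genes under the naming rule are not reported here. Alternatives were other scalings, priors, minimums and widths of the like-level range, and repeated rows kept. Gene names were matched to RefSeq entries of GRCr8 only for order along the chromosome, for gene overlap and for the Fcer1a promoter sequence.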

Additional observations from a re-analysis of the deposited data

How the results depend on the processing

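Of 54 alternative values, 42 stayed within the counting interval of the main value (or within 1.5 times, for counts of genes). No log2 fold or ratio change reversed its sign, which shares and counts of genes cannot do. The folds with no minimum equal the main folds by construction. Scaling on the housekeeping list gave log2 folds of 0.211 for Fcer1a and 0.008 for Ms4a2. Without ribosomal protein and mitochondrial genome genes, chosen after seeing the data, 0.791% of genes of like level were at or above Fcer1a and 11.6% at or above Ms4a2. The 161 genes at least 2-fold higher and 157 lower became 443 and 427 with a 1.5-fold rule, 104 and 99 with a prior of 5 counts, 855 and 875 with no minimum, and 21 and 15 with a minimum of 100 reads. The subunits were at least 1.5-fold apart in none of these. No paired analysis was possible because there is a single library per condition, which also leaves nothing to compare once a library is removed. Depth limits Fcer1g most, with 796 and 1156 reads.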

Other observations

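The genes beside the subunits on the chromosome did not share one pattern. By the order of protein-coding genes in GRCr8, 3 on each side were looked up, and 0 genes of that annotation overlap any of the subunits. Beside Fcer1a, Mptx1 had 363 and 489 reads (log2 fold 0.11), Ackr1, an atypical chemokine receptor, 152 and 233 (0.30), and the olfactory receptor gene Or10j2 18 and 22 (-0.03), and the other 3 were not analysed here. Beside Ms4a2, its family members Ms4a6a and Ms4a3 had 414 and 591 (0.19) and 23 and 39 reads (0.44), the syntaxin Stx3 1004 and 1217 (-0.04) and Oosp2 7 and 1. Beside Fcer1g, Nr1i3 had 153 and 223 reads (0.22), Tomm40l 281 and 386 (0.14), B4galt3 819 and 1041 (0.03) and Apoa2 12 and 9.

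Among the genes of like level at or above Ms4a2 was Milr1, an inhibitory immunoglobulin receptor of mast cells, chosen after its values were seen. It had 14196 reads without and 19893 with IgE, a log2 fold of 0.17 (0.14 to 0.20).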
